A study of Mus musculus with 8 samples.

Results

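Lyz2 and Lyz1, the neighbouring mouse genes for lysozyme, were followed in 8 RNA sequencing libraries of peritoneal macrophages. They are 2 of the 23735 loci in the deposited table and were taken by symbol, with 1 line each. The pair was selected on earlier results of the same data, in which Lyz2 stood among the smallest p-values of untreated MED1 knockout against control. That comparison, and those that contain it, are therefore described without a test. The LPS comparisons use the same untreated libraries, so for Lyz2 their p-values are not independent of that choice. The macrophages came from C57BL/6J mice aged 8 weeks. Controls carried floxed MED1 alleles (WT in the labels, and here). The others lacked MED1, a subunit of the Mediator complex, in macrophages (KO). Each genotype was kept untreated or given lipopolysaccharide (LPS), a bacterial cell wall component, at 50 ng/mL for 6 h. Each of the 4 groups has 2 libraries, A and B. The labels do not say that each library is a separate animal, so p-values measure the spread between these libraries, which may be technical. They do not name the promoter that drove Cre either.

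Lysozyme breaks the sugar backbone of bacterial cell walls. Mice have a pair of genes for it: Lyz2 encodes the M form of macrophages and neutrophils, and Lyz1 the P form, best known from the Paneth cells of the small intestine. Lyz2 transcription in myeloid cells is controlled by PU.1 and C/EBP factors. The gene is also used as a tool: in a widely used line Cre recombinase is inserted at the start codon of Lyz2, and that allele no longer encodes the enzyme. Whether the mice here carry such an allele was not tested.

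On mm9, the build named in the submitters' processing notes, GENCODE vM1 places Lyz2 at chr10:116714390-116719377 and Lyz1 at chr10:116724852-116729924. Both lie on the minus strand with 4 exons, 5474 bases apart. Their coding sequences have 447 bases each and are identical at 425 of them (95.1%). The annotated transcripts are identical at 96.0% of aligned bases, with 118 bases as the longest identical stretch. The first 90 coding bases show how the genes can be told apart. They lie in exon 1, at chr10:116719209-116719298 for Lyz2 and chr10:116729805-116729894 for Lyz1, and the 7 capitals in each mark bases that differ.
Lyz2: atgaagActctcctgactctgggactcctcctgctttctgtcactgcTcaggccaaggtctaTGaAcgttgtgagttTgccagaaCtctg
Lyz1: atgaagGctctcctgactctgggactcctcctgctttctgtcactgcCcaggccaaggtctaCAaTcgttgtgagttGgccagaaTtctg
Of all windows of 50 bases in the Lyz2 transcript, 15.4% also occur in the Lyz1 transcript, and of windows of 100 bases, 1.98%. No source used here gives the read length or the treatment of reads that match both genes. A split of reads between the genes is thus an uncertainty of both values.

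The upstream sequences are shown because the levels of the paralogs are compared between genotypes. They were read from the RefSeq promoter table (GRCm38.p6, minus strand), from 250 to 21 bases before the RefSeq start: chr10:117282293-117282522 for Lyz2 and chr10:117292889-117293118 for Lyz1. The RefSeq and GENCODE starts agree for Lyz1 but not for Lyz2. On mm9 the 250 bases before the RefSeq start of Lyz2 are chr10:116719329-116719578, and the GENCODE gene ends within them, at 116719377. The bases nearest the RefSeq start of Lyz2 are thus transcribed by the GENCODE annotation. Capitals mark the 50 bases in each that differ from the aligned base of the paralog or have none.
Lyz2: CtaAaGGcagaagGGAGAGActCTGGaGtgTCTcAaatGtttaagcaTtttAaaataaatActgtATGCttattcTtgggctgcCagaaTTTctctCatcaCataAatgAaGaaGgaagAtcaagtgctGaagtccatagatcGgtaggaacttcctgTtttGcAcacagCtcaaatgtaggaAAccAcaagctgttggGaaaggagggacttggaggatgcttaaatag
Lyz1: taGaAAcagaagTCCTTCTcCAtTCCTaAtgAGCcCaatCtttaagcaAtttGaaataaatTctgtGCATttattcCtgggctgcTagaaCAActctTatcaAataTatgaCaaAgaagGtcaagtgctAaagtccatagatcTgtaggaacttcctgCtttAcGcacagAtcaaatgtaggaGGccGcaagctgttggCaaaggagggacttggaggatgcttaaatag
The 100 bases next to the start were 92% identical, against 73.0% in the 150 bases farther out. On both strands of the 250 bases, the C/EBP pattern TTNNGNAA matched once in each gene, as TTGGGAAA from 55 bases before the start of Lyz2 and as TTAAGCAA from 209 bases before that of Lyz1. The Lyz2 match lies across the GENCODE start of that gene. The pattern matched in 36.9% of the 27025 promoters of the RefSeq table. The PU.1 pattern GAGGAA had no match in either window and matched in 23.1% of all promoters. Shorter or other forms of PU.1 sites were not searched. Likewise without a match were the AP-1 pattern TGANTCA, found in 6.87% of all promoters, the TATA box letters TATAAA, found in 13.0%, and the Sp1 box GGGCGG, found in 32.9%.

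Expression is given as the deposited RPKM, which divides reads by transcript length and by mapped reads, so levels can be compared between genes. No read counts are given. The steps between low values put the depth of a library at 7.04 to 14.5 M reads, and between 10192 and 11027 loci reached 1 RPKM. At the annotated transcript lengths a library held 0.0509 to 0.452 M reads of Lyz2 and 0.00621 to 0.0409 M of Lyz1. Med1 itself overlapped between genotypes, at 21.6 to 24.8 RPKM in WT and 17.6 to 24.4 in KO. Its value covers the whole locus and does not measure the deleted exons, so KO means libraries labelled as knockout.

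Lyz2 was the most abundant transcript of untreated WT macrophages. It stood at 28588 RPKM in WT A and 32317 in WT B, 5.19% and 5.79% of the summed RPKM of all loci. The next loci were those of the ferritin chains, Fth1 and Ftl1, which store iron, with means of 18454 and 15532 RPKM. With LPS, WT macrophages had 17329 (A) and 13230.5 RPKM (B), and Lyz2 was at place 3 in both libraries, after the acute phase protein Saa3 and Fth1. In untreated KO the values were 8502.5 (A) and 15001 RPKM (B), and with LPS 5111 (A) and 4547 RPKM (B). Lyz2 thus took places 3 and 1 in untreated KO and places 6 and 11 in KO with LPS. In order, untreated WT was highest and KO with LPS lowest, without overlap with other groups, whereas WT with LPS and untreated KO overlapped.

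Lyz1 was also abundant but lay well under Lyz2 in every library. Its values were 1691 (A) and 2414 RPKM (B) in untreated WT, and 1534 (A) and 698 RPKM (B) in WT with LPS. Untreated KO had 2231 (A) and 3652 RPKM (B), and KO with LPS had 957 (A) and 1128 RPKM (B). Untreated KO was highest by its mean but overlapped untreated WT. The LPS groups, where the KO values lay between the WT values, were the lowest and did not overlap either untreated group.

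**Figure D1:**
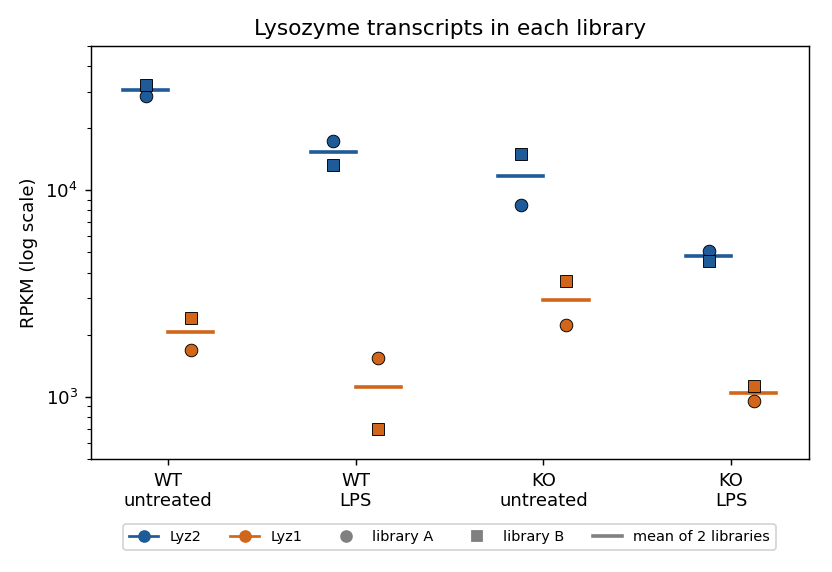
RPKM of Lyz2 (blue) and Lyz1 (orange) in each of the 8 libraries, on a log axis, by genotype and treatment; circles are A libraries, squares are B libraries, and bars are means of 2. Lyz2 falls from 28588 and 32317 RPKM in untreated WT to 5111 and 4547 in KO with LPS, while the Lyz1 values of both genotypes overlap.

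The first question was whether LPS changes lysozyme transcripts. Averaged over genotypes, both genes fell. The log2 change of RPKM + 1 was -1.12 for Lyz2 (SE 0.30, limma adjusted p = 0.0306) and -1.21 for Lyz1 (SE 0.32, limma adjusted p = 0.0279). These correspond to levels 2.17 and 2.31 times lower, and libraries of the same letter showed this direction in 4 of 4 comparisons for each gene. Falls were common in this comparison: 21.8% of the 11272 loci tested were called lower and 8.46% higher, and the median of all loci was -0.26. Relative to that median the changes were -0.85 and -0.95, and with median-ratio scaling, which moves the median to -0.01, they were -0.81 and -0.91. Both calls were lost when single libraries were left out. For Lyz2 the adjusted p was 0.0863 without WT A, 0.1001 without WT B, 0.110 without WT LPS B, 0.0885 without KO LPS A and 0.127 without KO LPS B. For Lyz1 it was 0.0597, 0.0921, 0.0776, 0.0646, 0.0786 and 0.0829 without WT A, WT B, WT LPS B, KO B, KO LPS A and KO LPS B. With no filter on low values it was 0.506 for Lyz2 and 0.0799 for Lyz1.

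In an exact two-sided permutation test of the 4 LPS against the 4 untreated libraries, Lyz1 gave p = 0.0286, the smallest this design allows, and Lyz2 gave p = 0.143. These are 2 of 6 such tests, and adjusted over the 6 by the Benjamini-Hochberg method they gave 0.171 and 0.429. The Lyz2 values of untreated KO lie within or under those of WT with LPS, so the pooled groups overlap for this gene.

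Within a genotype neither gene passed. For Lyz2 each of these comparisons uses an untreated group on which the choice of the gene rested, which can shift its value. In WT, Lyz2 had a log2 change of -1.01 (SE 0.42, limma adjusted p = 0.167). Its LPS level was 60.6% of the untreated level in the A libraries and 40.9% in the B libraries. Lyz1 in WT had -0.96 (SE 0.45, limma adjusted p = 0.197), and its letter pairs were far apart, at 90.7% in A and 28.9% in B; leaving out WT LPS A gave -1.53, and leaving out WT LPS B gave -0.40. In KO, Lyz2 had -1.23 (SE 0.42, limma adjusted p = 0.116), with 60.1% in A and 30.3% in B. This value was -1.90 with quantile normalization, -1.64 without KO A and -0.82 without KO B. Lyz1 in KO had -1.46 (SE 0.45, limma adjusted p = 0.0898), with 42.9% in A and 30.9% in B. Of the 11272 loci, 3.14% were called lower and 3.17% higher with LPS in WT, and 3.31% lower and 3.31% higher in KO. The LPS change in KO minus that in WT was -0.22 (SE 0.60) for Lyz2 and -0.49 (SE 0.63) for Lyz1, each smaller than its standard error.

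**Figure D2:**
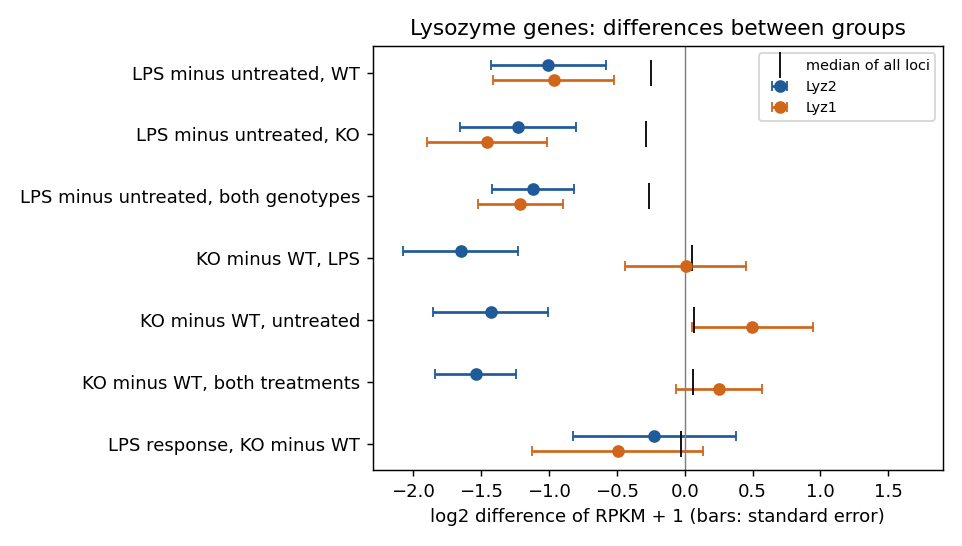
Log2 differences of RPKM + 1 for Lyz2 (blue) and Lyz1 (orange) in 7 comparisons, with standard errors from the limma fit over 8 libraries; black ticks are the medians of 11272 loci. Both genes lie between -0.96 and -1.46 for LPS, whereas for genotype Lyz2 lies between -1.43 and -1.65 and Lyz1 between 0.01 and 0.50.

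The second question was whether lysozyme transcripts differ with loss of MED1. Among LPS-treated libraries, Lyz2 averaged 15280 ± 2898 RPKM in WT and 4829 ± 399 in KO (SD, n = 2). KO reached 29.5% of WT in the A libraries and 34.4% in the B libraries, and the groups did not overlap. The log2 difference was -1.65 (SE 0.42, 95% interval -2.64 to -0.66). It did not pass the threshold over all loci (limma adjusted p = 0.924, from 0.408 to 1 over the alternatives). In this comparison 0.00887% of loci were called lower, which is 1 locus, and 0% higher. At an unadjusted p under 0.05 there were 498 loci. Lyz2 was at place 51 of 11272 from the most negative difference. An exact permutation test of 2 against 2 libraries cannot go under p = 0.333, which is what Lyz2 gave.

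The Lyz1 values of the genotypes overlapped with LPS. Its means were 1116 ± 591 RPKM in WT and 1043 ± 121 in KO (SD, n = 2), with a log2 difference of 0.01 (SE 0.45, 95% interval -1.04 to 1.05, limma adjusted p = 1). The interval reaches changes of about a doubling either way, so a similar level is not shown. KO was at 62.4% of WT in the A libraries and at 162% in the B libraries, and without WT LPS B the difference was -0.56.

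The untreated libraries are given as a description. Lyz2 averaged 30453 ± 2637 RPKM in WT and 11752 ± 4595 in KO (SD, n = 2), and KO stood at 29.7% of WT in A and 46.4% in B. The log2 difference was -1.43 (SE 0.42), at place 29 from the most negative, and -0.51 with quantile normalization. Lyz1 averaged 2053 ± 511 RPKM in WT and 2942 ± 1005 in KO, a log2 difference of 0.50 (SE 0.45), and KO was at 132% of WT in A and 151% in B. Averaged over treatments, the genotype difference was -1.54 (SE 0.30) for Lyz2, or -0.95 with quantile normalization, and 0.25 (SE 0.32) for Lyz1. This average contains the comparison that Lyz2 was chosen from, and in it Lyz2 was at place 15 of 11272 from the most negative. Among 116 loci that reached 1000 RPKM in some library, a set named after the values were seen, Lyz2 had the most negative value. The next were the phosphoprotein osteopontin (Spp1, -1.03, SE 0.75), Saa3 (-1.02, SE 0.51), the matrix protein Thbs1 (-0.67, SE 0.47) and the lipid carrier Apoe (-0.63, SE 0.32).

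**Figure D3:**
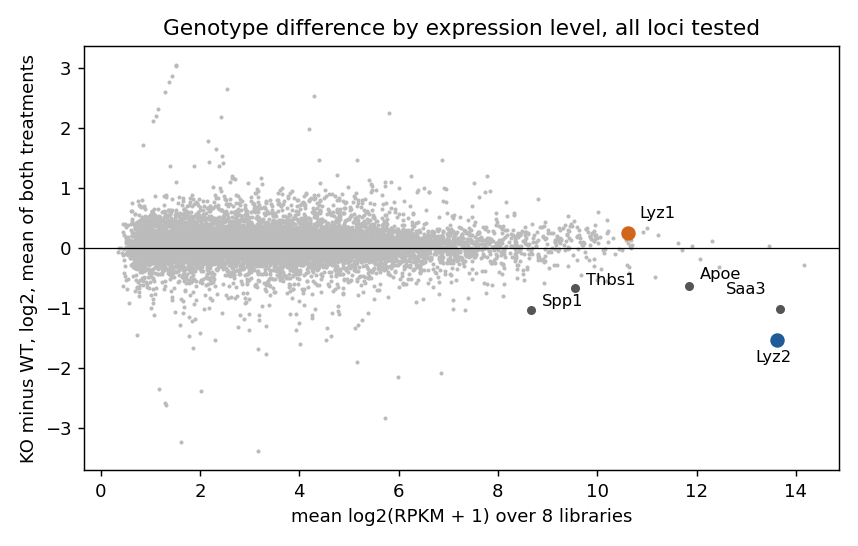
KO minus WT log2 difference averaged over treatments (vertical axis) against mean log2(RPKM + 1) over 8 libraries (horizontal axis), with 1 point for each of 11272 loci. Lyz2, at -1.54, is the lowest of the loci at the highest levels, and Lyz1, at 0.25, lies near the others; no test is attached because Lyz2 was chosen from these libraries.

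The division of the lysozyme signal between the paralogs separated the genotypes in every library. Lyz1 made up 5.58% (A) and 6.95% (B) of the summed Lyz1 and Lyz2 RPKM in untreated WT, and 8.13% (A) and 5.01% (B) in WT with LPS. In untreated KO it made up 20.8% (A) and 19.6% (B), and in KO with LPS 15.8% (A) and 19.9% (B). All 4 KO libraries lay above all 4 WT libraries, but the untreated ones among them are those that Lyz2 was chosen from. The share is a ratio within a library and does not depend on the scaling between libraries. Put the other way, Lyz2 exceeded Lyz1 by 11.3 to 19.0 times in WT and by 3.81 to 5.34 times in KO.

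With LPS the mean share was 17.8% ± 2.90 in KO and 6.57% ± 2.21 in WT (SD, n = 2), a difference of 11.3 percentage points (exact permutation p = 0.333, the smallest possible with 2 against 2 libraries; 0.5 adjusted over the 6 tests). The untreated means, 20.2% ± 0.85 in KO and 6.27% ± 0.97 in WT, are a description, since Lyz2 was chosen from them. For LPS itself, the mean share of the 4 LPS libraries was 1.03 percentage points lower than that of the 4 untreated ones (exact two-sided permutation p = 0.771, 0.926 adjusted over the 6 tests). The sign of that difference changed without either WT LPS library or either untreated KO library. The summed RPKM of both genes was 32505 ± 3149 in untreated WT, 16396 ± 3490 in WT with LPS, 14693 ± 5600 in untreated KO and 5872 ± 278 in KO with LPS (SD, n = 2).

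**Figure D4:**
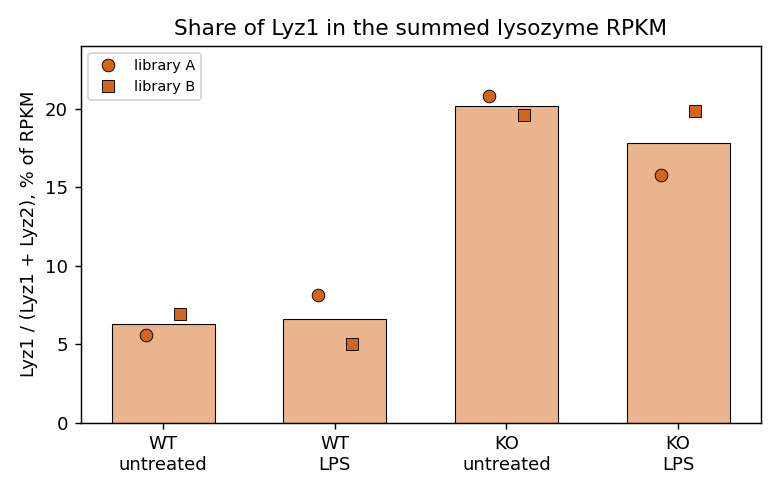
Lyz1 as a percentage of the summed Lyz1 and Lyz2 RPKM in each library (points) and as the mean of 2 libraries (bars), by genotype and treatment. WT libraries lie between 5.01% and 8.13% and KO libraries between 15.8% and 20.8%. Lyz2 was chosen from the untreated libraries.

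Cell type markers were read beside these values. In bulk RNA, fewer cells of a type and less RNA per cell cannot be told apart. All 6 macrophage markers were above the filter, and the sum of their RPKM was 3046 and 2993 in untreated WT, 2810 and 2883 in untreated KO, 2247 and 1725 in WT with LPS and 2047 and 1609 in KO with LPS (A and B). The sum was lower with LPS in both genotypes. Within a treatment the sums of the genotypes were close, but with LPS the single markers differed in direction. None of the 6 was called for MED1 loss with LPS, where 1 of 11272 loci was called. Their median log2 difference there was -0.64 beside 0.05 for all loci. Fcgr1 had -1.57, Mertk -0.81, Csf1r -0.72 and Itgam -0.56, whereas Emr1 had 0.06 and Cd68, the most abundant of them untreated, 0.84. Without LPS the median was 0.05, beside 0.07 for all loci. So 4 of the 6 macrophage markers had negative values with LPS, as Lyz2 did, and their part in the Lyz2 difference was not tested. As a multiple of that sum, a measure chosen after the values were seen, Lyz2 was 10.1 ± 0.998 in untreated WT, 7.69 ± 0.03 in WT with LPS, 4.11 ± 1.54 in untreated KO and 2.66 ± 0.23 in KO with LPS (SD, n = 2). The genotype groups, of 2 libraries each, did not overlap on this scale at either treatment. However, Lyz2 was chosen from the untreated libraries, and no test was run on this scale. The sum rests mainly on Cd68, Itgam, Csf1r and Emr1, and Cd68 offsets the lower markers. For Lyz1 the multiples were 0.68 ± 0.18, 0.54 ± 0.20, 1.03 ± 0.33 and 0.58 ± 0.17 in the same order.

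The 6 B cell markers, all above the filter, summed to 391 to 600 RPKM in WT and 547 to 1628 in KO. Untreated, the sums were 600 (A) and 530 (B) in WT and 547 (A) and 1628 (B) in KO. With LPS they were 586 (A) and 391 (B) in WT and 1357 (A) and 950 (B) in KO. None of the 6 was called for MED1 loss with LPS, where 1 of 11272 loci was called. All 6 were higher in KO there, by log2 0.998 (Ebf1) to 1.34 (Ms4a1). Their median log2 difference was 1.21 beside 0.05 for all loci (untreated 0.71 beside 0.07). The part of B cells in the genotype difference was not tested. Neutrophils also make lysozyme. Of their 12 markers, 11 were in the table and 6 above the filter; the granule genes Elane, Mpo and Ltf reached at most 1.01, 0.929 and 0.143 RPKM and Ngp was listed at 0. Other granule genes of the list were measured. Prtn3 reached 3.94 RPKM. Camp went from 0 to 3.72 RPKM in the untreated libraries to 9.83 to 27.5 with LPS (log2 3.21 averaged over genotypes, limma adjusted p = 0.00587). Of the 6 above the filter, 2 were called higher with LPS and 1 lower, beside 8.46% and 21.8% of all loci. Besides Camp, the log2 changes were 1.10 (S100a8), 0.26 (Csf3r), -0.80 (S100a9, at most 5.63 RPKM), -1.03 (Prtn3) and -2.03 (Mmp8). The neutrophil sum, 245 to 534 RPKM, came mostly from Mmp8, Csf3r and S100a8 and was 271 to 534 in WT and 245 to 457 in KO. In WT it was 534 (A) and 414 (B) untreated and 381 (A) and 271 (B) with LPS. In KO it was 457 (A) and 374 (B) untreated and 292 (A) and 245 (B) with LPS. Sums over the 8 libraries were 203 to 1122 RPKM for 8 markers of large peritoneal macrophages, 837 to 2292 for 7 of monocytes and small peritoneal macrophages, 2.52 to 28.8 for 5 of T and NK cells, and 5.04 to 13.5 for 4 of dendritic cells. Mast cell markers summed to 71.7 to 168 RPKM in the B libraries and 0.249 to 25.2 in the A libraries.

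The rest of the lysozyme family was nearly silent. Lyzl1, Lyzl6, Lyg1, Lyg2, Spaca3 and Spaca5 were listed at 0 in every library, and Lalba, for the milk protein alpha-lactalbumin, reached at most 0.683 RPKM. Lyzl4, a lysozyme-like gene best known from testis, was the other member above the filter, at 5.94 to 13.4 RPKM.

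The genes around the pair on chromosome 10 were read for comparison. Of the 5 protein-coding genes on each side, 9 were in the table and 8 above the filter. Their median difference for MED1 loss with LPS was 0.11 beside 0.05 for all loci (untreated 0.12 beside 0.07), and 0 of the 8 were called, in a comparison that called 0.00887% of all loci. The closest expressed genes were Yeats4, a chromatin reader subunit, and Cpsf6, a factor of mRNA 3' end processing. Yeats4 had values of 37.8 to 46.0 RPKM in WT and 33.3 to 46.1 in KO, and Cpsf6 11.6 to 18.6 in WT and 15.6 to 30.8 in KO. Averaged over genotypes, LPS raised the p53 ligase Mdm2 (log2 0.67, limma adjusted p = 0.03) and lowered the nuclear pore gene Nup107 (-0.59, limma adjusted p = 0.0248), and 6 of the 8 were not called, beside 8.46% of all loci called higher and 21.8% lower.

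Transcription factors listed for the control of lysozyme genes moved in both directions with LPS. Whether each of them acts at mouse Lyz2 was not tested. Of 16, 14 were above the filter; averaged over genotypes 3 rose and 1 fell, with a median of -0.01 (8.46% of all loci rose and 21.8% fell, with a median of -0.26). Cebpa, the C/EBP factor of myeloid differentiation, fell by 2.28 on the log2 scale (limma adjusted p = 0.00629), from 62.1 to 64.3 RPKM in untreated WT to 8.05 to 28.7 with LPS, and from 57.7 to 79.6 to 8.70 to 12.5 in KO. Its relatives Cebpb (0.92) and Cebpd (1.14) and the myeloid factor Runx1 (0.62) rose. Spi1, which encodes PU.1, had values of 173 to 288 RPKM over all libraries and a change of -0.07 (limma adjusted p = 0.825). For MED1 loss with LPS, where 1 of 11272 loci was called, the count among the 14 was 0 and their median -0.25, beside 0.05 for all loci. Untreated, as a description, the median was 0.06 beside 0.07. Cebpb had the most negative untreated value of the 14 (-0.95), at 183 (A) and 245 RPKM (B) in WT and 143 (A) and 82.9 RPKM (B) in KO. With LPS its difference was -0.23 and the genotypes overlapped.

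Other genes whose promoters drive myeloid Cre or reporter lines were compared as well. Of 9, 8 were above the filter and none was called for MED1 loss with LPS, beside 1 of 11272 loci. Their median was -0.27 with LPS and 0.06 untreated, beside 0.05 and 0.07 for all loci. Csf1r, the receptor for macrophage colony-stimulating factor, had KO minus WT differences of -0.44 untreated and -0.72 with LPS (limma adjusted p = 1 for the latter), with values of 356 to 948 RPKM in WT and 249 to 679 in KO. The integrin Itgam had -0.01 and -0.56, and Cd68, a lysosomal glycoprotein, -0.12 and 0.84. The Fc receptor Fcgr1 had 0.88 and -1.57, the latter the most negative of the 8 and close to the -1.65 of Lyz2 (limma adjusted p = 1). Fcgr1 had low values, however, at 4.11 to 6.75 RPKM in WT. In KO it had 6.29 (A) and 17.3 RPKM (B) untreated and 1.93 (A) and 0.455 RPKM (B) with LPS. Averaged over genotypes LPS lowered Cd68 (-1.33) and Fcgr1 (-1.26) and raised S100a8 (1.10), a calcium-binding protein. The Fcgr1 change with LPS was -0.03 in WT (limma adjusted p = 0.974) and -2.48 in KO (limma adjusted p = 0.0356). The difference between these changes was -2.45 (SE 0.71) and did not pass over all loci, so a genotype difference in the response is not shown. Cx3cr1, the fractalkine receptor, reached at most 0.245 RPKM.

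The falls of both lysozymes with LPS were accompanied by those of other lysosomal genes. Of 30 antimicrobial and lysosomal effector genes, 26 were above the filter. Averaged over genotypes 11 of them fell and 6 rose, where 21.8% of all loci were called lower and 8.46% higher. Their median was -0.62 beside -0.26 for all loci. Of the 5 most abundant, the protease cathepsin D (Ctsd, -1.50), the saposin precursor Psap (-1.64) and cathepsin S (Ctss, -1.17) fell and the protease inhibitor Slpi (1.13, a locus that also carries Mir7678) rose, while cathepsin B (Ctsb) had -1.14 (limma adjusted p = 0.0511). The largest changes were rises of the iron-sequestering Lcn2 (5.47), the itaconate enzyme Irg1 (4.73), the nitric oxide synthase Nos2 (4.71) and the cathelicidin Camp (3.21). For MED1 loss with LPS, 0 of the 26 were called, beside 1 of 11272 loci, and the median was 0.06 beside 0.05 for all loci (untreated -0.17 beside 0.07). The 5 most abundant had 0.18 (Ctsd), 0.58 (Psap), -0.48 (Slpi), -0.23 (Ctss) and 0.37 (Ctsb). The most negative of the list were haptoglobin (Hp, -2.53), the chitinase-like Chil3 (-1.42) and Lcn2 (-1.31), beside -1.65 for Lyz2.

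Likeness of pattern was measured as the Pearson correlation of log2(RPKM + 1) over the 8 libraries, among 7706 named genes with a mean of at least 5 RPKM; it is a description, and the libraries share genotype and treatment. The genes most like Lyz2 were Atxn2 (r = 0.948), Maged2 (0.944), Atg9a (0.940), Stab1 (0.925) and Pygl (0.919). Stab1, a scavenger receptor, ran from 14.2 RPKM in untreated WT B to 1.45 in KO with LPS A, and Pygl, glycogen phosphorylase, from 97.5 to 15.3. The most opposite were Mllt11 (-0.920), the growth regulator Myc (-0.919) and Ier5 (-0.918). Lyz1 was most like Ccndbp1 (0.994), Rpap2 (0.987), Ylpm1 (0.986), Recql (0.985) and Gtpbp1 (0.984), and most unlike Mrpl54 (-0.974) and the AP-1 factor Junb (-0.969). The paralogs themselves correlated at r = 0.441, which put Lyz1 at place 2148 among the genes most like Lyz2.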

How the data were processed

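Per the submitters' processing notes, base calls came from bcl2fastq, alignment from TopHat2 2.0.14 and expression from Cufflinks 2.2.1 on mm9; no source used here gives the annotation, strandedness, read length or handling of shared reads. The deposited values are RPKM as the authors computed them. Of 24192 lines, 457 repeat a locus and were dropped. The 11272 loci that reached 1 RPKM in 2 or more libraries were analysed as log2(RPKM + 1), scaled as deposited, with limma 3.58.1 in R 4.3.3: 1 mean per group over all 8 libraries, trended moderated variances, two-sided tests and Benjamini-Hochberg adjustment over all loci, with a call at an adjusted p under 0.05. Fold changes are on the log2(RPKM + 1) scale. The code was tested on simulated data. Permutation tests used scipy 1.17.1. Depth was estimated from value ratios of low loci, where 82.2% gave whole multiples of 1 step (tolerance 0.1 read plus 0.02 per read), with the deepest library set from 1081 genes with 1 annotated transcript.

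The members, the 5 gene lists, the 8 marker lists and the tests were chosen with earlier results of these data known. Named were both members, list members above the filter, the 5 most abundant effectors and those with the largest LPS changes, the 5 genes most like and 3 most unlike each member (1 of these is not reported here), and, after their values were seen, the highly abundant loci beside Lyz2. Transcript sequences are from GENCODE vM1 and upstream sequences from RefSeq. Both members matched, but the sources place the start of Lyz2 differently. Alternatives changed the pseudocount, filter, scaling, variance trend, block, libraries fitted and each library in turn.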

Additional observations from a re-analysis of the deposited data

Results flagged for a closer look

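Lyzl4, the lysozyme-like gene expressed at a low level beside the members, had opposite LPS responses in the genotypes, with every library of each moving its own way. In WT it went from 11.2 and 10.8 RPKM untreated to 6.39 and 7.62 with LPS, and in KO from 9.01 and 5.94 to 13.4 and 10.7 (A and B). The LPS change was -0.59 in WT and 0.64 in KO (SE 0.24 each, limma adjusted p = 0.157 and 0.137). The difference between them was 1.23 on the log2 scale (SE 0.34), with a limma adjusted p of 1, so it did not pass over all loci. On mm9 GENCODE vM1 places Lyzl4 at chr9:121486961-121551214 on the minus strand; the transcript 4930596M17Rik lies within it on the other strand, and without stated strandedness reads of the pair cannot be told apart.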

How the results depend on the processing

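Both members kept a negative LPS change, averaged over genotypes, in all 16 alternatives. The value ran from -1.46 to -0.81 for Lyz2 and from -1.31 to -0.91 for Lyz1 over the settings, and from -1.32 to -0.91 and from -1.49 to -0.93 when a library was left out (the lone library of its group is then assumed to vary like the others). The call was lost with no filter, at the same values of -1.12 and -1.21 (adjusted p = 0.506 and 0.0799), and the cause was not tested. Within each genotype, neither gene passed in any of 17 alternatives (adjusted p from 0.0514 to 0.743); left-out libraries gave Lyz2 -1.20 to -0.81 in WT and -1.64 to -0.82 in KO, and Lyz1 -1.53 to -0.40 and -1.81 to -1.10, and quantile normalization gave Lyz2 -1.90 in KO. The difference of Lyz2 with MED1 loss and LPS stayed negative and uncalled in all 17 (adjusted p 0.408 to 1). Quantile normalization, which sets values by rank, gave Lyz2 -0.51 for MED1 loss without LPS, -0.95 averaged over treatments and -0.87 for the interaction. When a library was left out these ran from -1.84 to -1.02, from -1.74 to -1.33 and from -0.63 to 0.19. The difference of Lyz1 with MED1 loss and LPS, near 0, was -0.074 with median-ratio scaling, -0.19 with quantile normalization and -0.56 to 0.57 when a library was left out. Left-out libraries gave Lyz1 -0.032 to 0.54 averaged over treatments and -1.06 to 0.076 for the interaction. The share of Lyz1 differed by 9.21 to 13.3 percentage points between genotypes with LPS, by 11.99 to 13.7 over all libraries, and by -3.59 to 1.49 between LPS and untreated. Weighted by transcript length, chosen after seeing the data, the differences were 10.9, 12.2 and -1.002; weighting by RefSeq coding length was not run.

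With the letter as a replicate block, Lyz2 and Lyz1 kept their values and every call (adjusted p = 0.0312 and 0.0241 for LPS averaged over genotypes). The libraries' deviations from group means correlated at 0.20 to 0.41 by letter. The block raised the loci called from 711 to 1818 with LPS in WT and from 746 to 1611 in KO. These counts were 270 and 262 with no filter and 130 and 462 with only the groups compared. They ran from 9 to 2242 and from 15 to 1546 when a library was left out, that of the averaged LPS change (3410) from 1089 to 4531, and that of MED1 loss with LPS (1) from 0 to 6. It was 2 with no filter and 4 with only the groups compared. Depth did not limit the members, but 2 libraries a group limit every comparison.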

Other observations

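Haptoglobin (Hp), which binds free haemoglobin and was named after its values were seen, had the most negative MED1 difference with LPS among the 26 effector genes. It stood at 73.2 (A) and 412 RPKM (B) in untreated WT, and at 26.5 (A) and 113 RPKM (B) in untreated KO. With LPS the values were 278 (A) and 368 RPKM (B) in WT and 31.7 (A) and 93.3 RPKM (B) in KO. The log2 difference with LPS was -2.53 (limma adjusted p = 1), and within each letter and treatment KO was lower than WT. Mmp8, known as neutrophil collagenase, was at 36.1 to 434 RPKM in these libraries and averaged over genotypes it fell with LPS (log2 -2.03, limma adjusted p = 0.027). Among the other neutrophil markers Csf3r reached 139, S100a8 121 and Camp 27.5 RPKM, and Elane and Mpo at most 1.01 and 0.929. S100a9 reached at most 5.63 and Cxcr2 at most 0.767 RPKM.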
